A study of Mus musculus with 36 samples.

Results

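Regions called for the histone marks H3K4me1 and H3K27ac were compared with each other in crypts of the small intestine of fasted mice. In each of the 2 fasted pools, numbered 2 and 5 in the labels, the peaks of both marks were merged, and every merged region fell into 1 of 3 classes: both marks, H3K4me1 alone or H3K27ac alone. An overlap of 1 bp was enough for a mark to count, and each class was then divided by an H3K4me3 peak of the same pool. The merging gave 42048 regions in fasted pool 2 and 48893 in fasted pool 5. The peaks of all 32 lists of the series merged into 97542 regions. The classes rest on 4 of the 36 samples.

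H3K4me1 marks enhancers whether or not they are active, and it also flanks promoters and spreads into transcribed genes. H3K27ac is laid down at active enhancers and active promoters, so distal sites with both marks are usually read as active enhancers and distal H3K4me1 without acetylation as primed ones. H3K4me3 marks promoters. H3K9bhb and H4K12bhb are lysine β-hydroxybutyryl marks, whose acyl group derives from the ketone body β-hydroxybutyrate, a fuel that the liver releases during fasting.

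Both fasted pools came from mice deprived of food for 24 h with free access to water, and fed pools 1 and 4 from mice with free access to food. All were labelled wildtype, although the protocol names both C57BL/6J animals and carriers of the Lgr5EGFP-IRES-CreERT2 knock-in allele. The mice were 6 to 12 weeks old, both sexes were pooled, and 4 animals made up a pool. Fed and fasted crypts alike were isolated in 100 nM trichostatin A, a histone deacetylase inhibitor. A pool is the replicate, and whole crypts hold stem, progenitor and Paneth cells together, so a region with both marks need not carry both in the same cell. No gene names could be placed on the mm9 positions of the files, and the labelled tissue was therefore not checked against marker genes.

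The lists differed in length, and the H3K4me1 lists most of all among the marks that define the classes. H3K4me1 had 18692 peaks in fasted pool 2 and 46499 in fasted pool 5, which is 2.49 times as many, with a highest score of 739 in pool 2 and 2731 in pool 5. H3K27ac had 37974 and 35917 peaks in the same pools, and H3K4me3 had 15079 and 18429. In the fed pools, H3K4me1 had only 309 peaks in pool 1 and 39865 in pool 4, and H3K4me3 had 3430 and 295. The file names place fasted pool 2 with fed pool 1 in run 10 and fasted pool 5 with fed pool 4 in run 11. The read depth behind a peak list is unknown, and a missing peak is a missing call and not a measured absence. Each result is therefore given for each pool.

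H3K27ac alone was the most frequent class in fasted pool 2, whereas regions with both marks were the most frequent in fasted pool 5. Pool 2 held 9727 regions with both marks (23.1%), 5025 with H3K4me1 alone (12.0%) and 27296 with H3K27ac alone (64.9%). Pool 5 held 22095 regions with both marks (45.2%), 15963 with H3K4me1 alone (32.6%) and 10835 with H3K27ac alone (22.2%). The mean shares were 34.2 ± 15.6% for both marks, 22.3 ± 14.6% for H3K4me1 alone and 43.5 ± 30.2% for H3K27ac alone (SD, n = 2 pools), and the order of the classes differed between the pools. Seen from the peaks, 73.1% of H3K4me1 peaks of pool 2 and 65.7% of pool 5 met an H3K27ac peak, while 28.1% and 69.8% of the H3K27ac peaks met an H3K4me1 peak. When each of the 4 lists was cut to its 18692 highest-scoring peaks, the pools came closer, at 29.3% and 42.6% with both marks and 42.0% and 33.1% with H3K27ac alone.

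**Figure D1:**
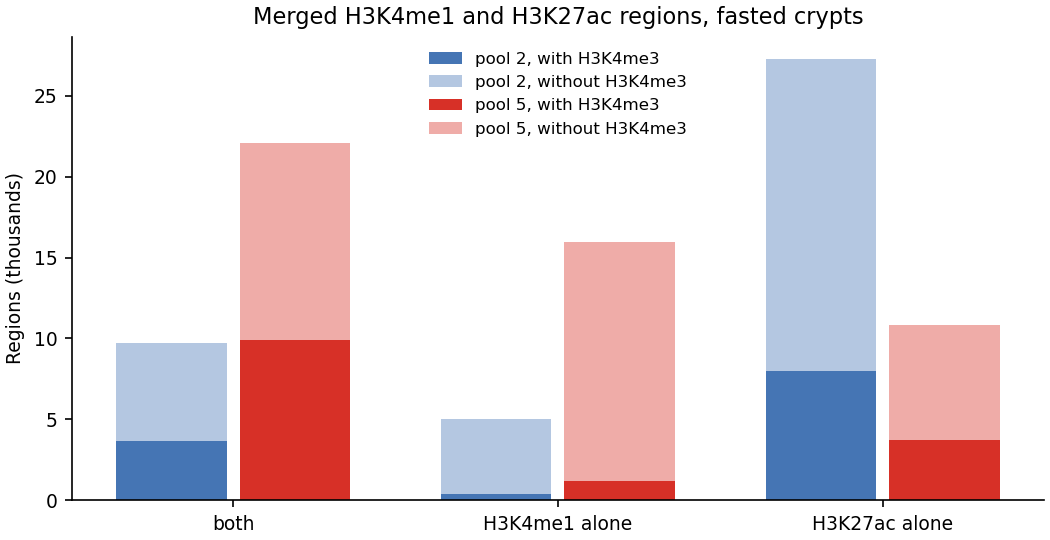
Number of merged regions in each class for fasted pools 2 (blue) and 5 (red). The dark part of a bar holds the regions with an H3K4me3 peak and the pale part those without. The 27296 regions with H3K27ac alone in pool 2 stand against 10835 in pool 5.

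The most frequent disagreement between the pools was a region with no peak of either mark in pool 2 and H3K4me1 alone in pool 5, with 12828 regions, and the next was H3K27ac alone in pool 2 and both marks in pool 5, with 9127. Over the 52872 regions obtained by merging both pools, 14582 (27.6%) had the same class in each. Of the regions with both marks in pool 2, 93.2% also had both in pool 5. Of those with H3K27ac alone in pool 2, 44.8% had both marks in pool 5, 23.5% were H3K27ac alone and 27.5% had no peak of either mark. Of those with H3K4me1 alone in pool 2, 42.4% were H3K4me1 alone in pool 5 and 21.4% had both marks. In the other direction, 83.2% of the regions with H3K4me1 alone in pool 5 had no peak in pool 2. Of the regions with both marks in pool 5, 39.2% had both in pool 2, against 51.3% of those with H3K27ac alone that kept their class. The share that kept its class was thus highest for both marks from pool 2 to pool 5, and for H3K27ac alone from pool 5 to pool 2. These shares were not set against the share of each class over all merged regions, so the classes are not ranked by agreement.

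H3K4me3 lay on many regions that carried H3K27ac and on few with H3K4me1 alone. In pool 2, an H3K4me3 peak overlapped 37.3% of regions with both marks, 7.18% of regions with H3K4me1 alone and 29.3% of regions with H3K27ac alone, against 28.5% of all regions. In pool 5 the shares were 44.9%, 7.35% and 34.5%, against 30.4% of all regions. H3K4me1 alone was below H3K27ac alone by 24.7 ± 3.6 percentage points (SD, n = 2 pools) and below it in all 4 pools of the series. Both marks exceeded H3K27ac alone by 9.21 ± 1.68 points, but this order depended on length. Among regions of 1000 to 4000 bp, 26.9% of those with both marks and 37.9% of those with H3K27ac alone carried H3K4me3, a difference of -11.01 points. The difference was also below 0 with peaks scoring 100 or more, with equal lists and with a 50% overlap. With 2 pools, a two-sided exact sign-flip test cannot give a p below 0.5, and it gave 0.5 for both contrasts.

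The marks were arranged differently in the pools within regions that carried both. Among such regions without H3K4me3, the bases under both peaks made up 43.4% of the length in pool 2 and 64.5% in pool 5. Bases under H3K27ac only made up 51.0% and 20.9%, and bases under H3K4me1 only 5.57% and 14.6%. The H3K4me1 peaks lay wholly inside H3K27ac in 50.4% of these regions in pool 2 and in 27.9% in pool 5. The opposite nesting, H3K27ac inside H3K4me1, was found in 3.95% and 21.0%. Regions with both marks were also long, with medians of 5716.5 bp (with H3K4me3) and 2951 bp (without) in pool 2 and of 4592 and 2889 bp in pool 5. H3K4me1 alone had medians of 1055 and 963 bp in pool 2 and 1216 and 1171 bp in pool 5, and H3K27ac alone had 2346 and 1246 bp in pool 2 and 1900 and 1095 bp in pool 5.

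Coverage around peak centres showed no gap of H3K4me1 at promoters. H3K4me1 peaks covered the centre of 11.6% of H3K4me3 peaks in pool 2 and 38.8% in pool 5, against 10.3% and 29.5% at a distance of 2000 bp, averaged over both sides. H3K27ac covered 78.9% and 80.0% of those centres. At distal H3K27ac peaks, those without H3K4me3, that met an H3K4me1 peak, H3K4me1 was most frequent at the H3K27ac centre, at 61.9% in pool 2 and 87.2% in pool 5. These peaks were selected for meeting H3K4me1, so high H3K4me1 coverage near their centres is built in and is no finding on position. H3K9bhb covered 64.7% and 45.4% of the same centres and 43.6% and 46.5% of the centres of distal H3K27ac peaks without H3K4me1. Coverage here is of called peaks, and a narrow dip of H3K4me1 read density at start sites was not tested.

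**Figure D2:**
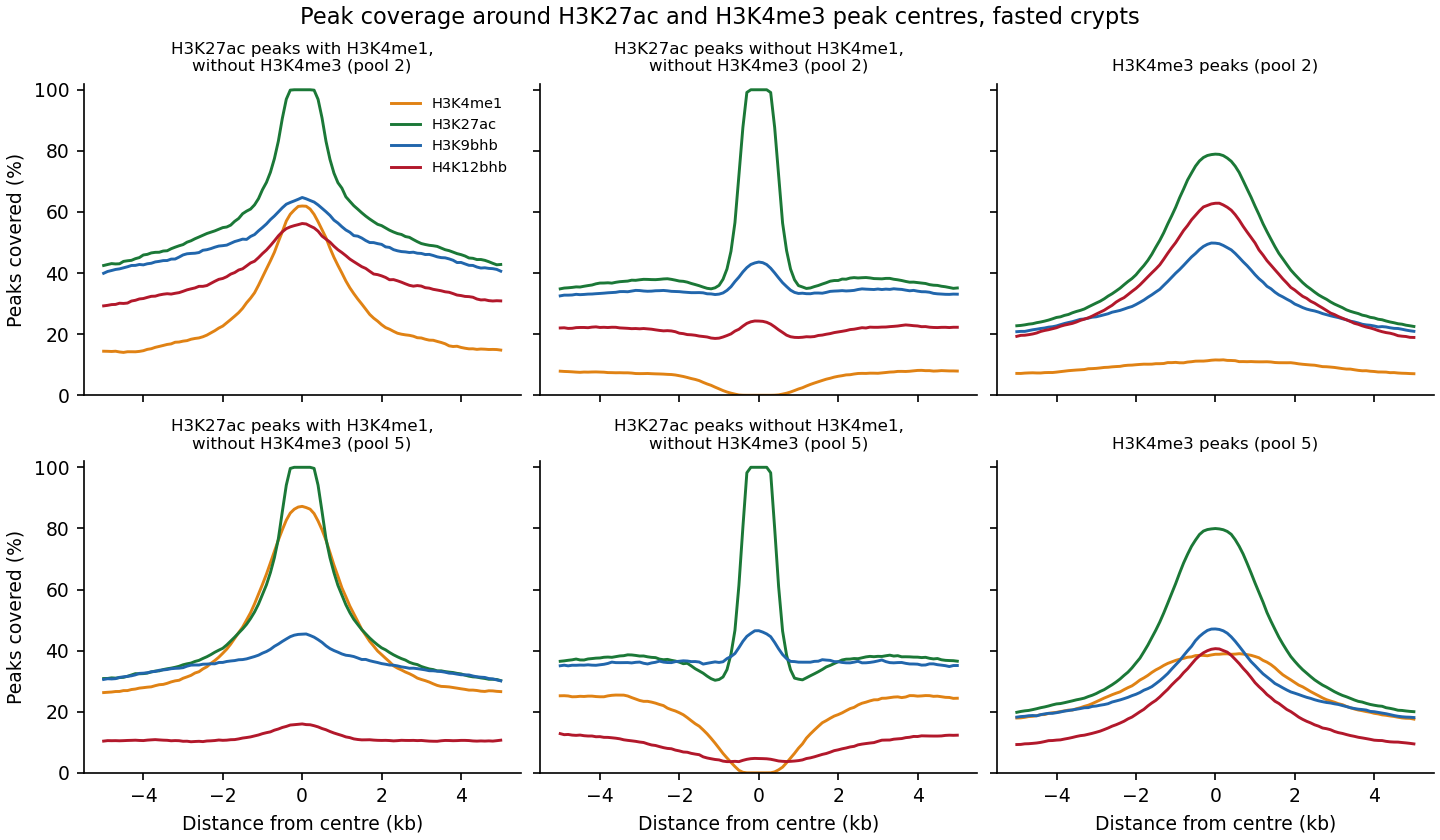
Share of peak centres (%) covered by a called peak of H3K4me1, H3K27ac, H3K9bhb or H4K12bhb at each distance (kb) from the centre, in fasted pool 2 (top) and pool 5 (bottom). At H3K4me3 peaks H3K4me1 covered 11.6% of centres in pool 2 and 38.8% in pool 5, with no dip in the middle.

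Both β-hydroxybutyryl marks were most frequent on regions with both H3K4me1 and H3K27ac and least frequent on H3K4me1 alone. H3K9bhb overlapped 57.3% of all merged regions in pool 2 and 44.0% in pool 5, and H4K12bhb overlapped 48.5% and 25.3%. Among regions without H3K4me3 in pool 2, H3K9bhb lay on 79.3% of those with both marks, 18.4% of those with H3K4me1 alone and 54.7% of those with H3K27ac alone. In pool 5 the shares were 61.7%, 8.69% and 54.7%. H4K12bhb lay on 69.5%, 11.3% and 32.0% of these classes in pool 2 and on 26.97%, 1.77% and 7.27% in pool 5. The order, both marks highest and H3K4me1 alone lowest, was the same for both β-hydroxybutyryl marks and in both pools. Wilson 95% intervals of these and the other class shares spanned at most 3.16 points, or 9.80 points for the small class of H3K4me1 alone with H3K4me3, and cover counting error only.

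Without H3K4me3, the low share on H3K4me1 alone kept its direction under each alternative tried. For H3K9bhb without H3K4me3, H3K4me1 alone minus H3K27ac alone was -36.3 points in pool 2 and -46.0 in pool 5, a mean of -41.1 ± 6.8 (SD, n = 2 pools), with an exact sign-flip p of 0.5. For H4K12bhb the differences were -20.7 and -5.50 points, a mean of -13.1 ± 10.8. Within each length bin that held at least 20 regions of both classes, H3K4me1 alone was lower, in 3 of 3 bins of pool 2 and 4 of 4 bins of pool 5, and for H3K9bhb the differences ran from -40.6 to -20.4 points in pool 2 and from -79.8 to -34.0 in pool 5. With H3K4me3 the order was less clear in pool 2, where the differences ran from -3.69 to 6.69 points and 2 of 3 bins lay above 0. H3K4me1 alone was also compared with both marks, without H3K4me3, among strong H3K4me1 peaks. In the highest score quartile of H3K4me1, H3K9bhb lay on 88.8% of regions with both marks and 29.3% of those with H3K4me1 alone in pool 2, and on 75.6% and 12.3% in pool 5. Length was not matched in this comparison. The scores are the authors' and rank peaks only within a list. Over all 4 pools of the series, the H3K9bhb difference without H3K4me3, H3K4me1 alone minus H3K27ac alone, was below 0 in 4 of 4. The two-sided exact sign-flip p was 0.125, the smallest that 4 pools allow.

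**Figure D3:**
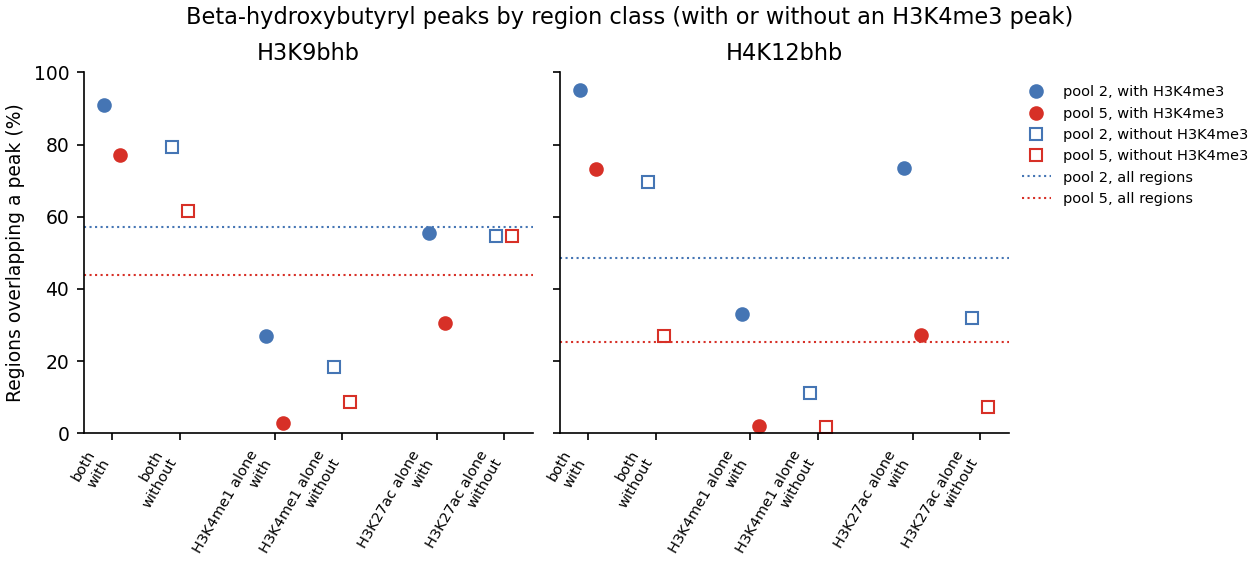
Share of regions (%) that overlap an H3K9bhb peak (left) or an H4K12bhb peak (right), by class, with filled circles for regions with H3K4me3 and open squares for those without, in fasted pools 2 (blue) and 5 (red). Dotted lines give the share over all merged regions, and H3K4me1 alone lies below them in every case.

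Whether H3K4me1 made a difference where H3K27ac was present depended on how regions were matched. Without H3K4me3, H3K9bhb was more frequent on both marks than on H3K27ac alone by 24.6 points in pool 2 and 7.02 in pool 5, a mean of 15.8 ± 12.5 (SD, n = 2 pools, exact sign-flip p = 0.5). Both fed pools gave differences above 0 too when unmatched, 21.8 and 26.1 points. By length bins, fed pool 1 was above 0 in 2 of 2 and fed pool 4 in 1 of 3, from -18.7 to 4.48 points. Fed pool 1 held 97 regions with both marks and without H3K4me3. In the fasted pools, the difference within length bins was near 0 in pool 2 and below 0 in pool 5. Between 1 and 2 kb, H3K9bhb lay on 54.8% of regions with both marks and 55.1% with H3K27ac alone in pool 2, and on 34.3% and 60.5% in pool 5. Between 2 and 4 kb, it lay on 82.1% and 81.9% in pool 2, and on 59.0% and 80.1% in pool 5. Over the bins the difference ran from -0.31 to 2.94 points in pool 2 and from -26.2 to -7.90 points in pool 5, where it was below 0 in 4 of 4 bins. Over all regions of 1000 to 4000 bp, the difference was 8.89 points in pool 2 and -14.04 in pool 5, a mean of -2.57 ± 16.2 (exact sign-flip p = 1).

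The length of a merged region includes H3K4me1 flanks outside H3K27ac, so H3K27ac peaks were also matched by their own length, an alternative chosen after seeing the data. Among distal H3K27ac peaks of 1000 to 4000 bp, H3K9bhb had a difference between peaks with and without H3K4me1 of 13.1 points in pool 2 and -7.63 points in pool 5. In the 1 to 2 kb bin, 62.6% of peaks with H3K4me1 and 55.1% without it met H3K9bhb in pool 2, against 41.7% and 60.5% in pool 5. Matching on the H3K27ac score gave the same split at the low end. In the lowest score quartile, H3K9bhb lay on 44.3% of regions with both marks and 38.5% with H3K27ac alone in pool 2, and on 30.1% and 48.4% in pool 5. In the third quartile it lay on 82.0% and 75.3% in pool 2, and on 80.0% and 76.2% in pool 5. The direction for short and low-scoring regions thus differed between the pools, whose H3K4me1 lists differ 2.49-fold in length, and the part of list length in it was not tested.

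H4K12bhb kept the excess on both marks more often. Without H3K4me3 the difference from H3K27ac alone was 37.5 points in pool 2 and 19.7 in pool 5, a mean of 28.6 ± 12.6 (SD, n = 2 pools, exact sign-flip p = 0.5). It was above 0 in 5 of 5 length bins of pool 2, by 1.87 to 12.0 points. In pool 5 it was above 0 in 3 of 4 bins and ran from -0.035 to 22.2 points. Between 4 and 8 kb, H4K12bhb lay on 93.1% of regions with both marks and 83.0% with H3K27ac alone in pool 2, and on 48.3% and 26.2% in pool 5. Matched by the length of the H3K27ac peak, 1000 to 4000 bp, the differences were 25.6 and 9.32 points. In the fed pools the unmatched differences were 16.7 and 32.4 points, and the exact sign-flip p over 4 pools was 0.125, the smallest possible.

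**Figure D4:**
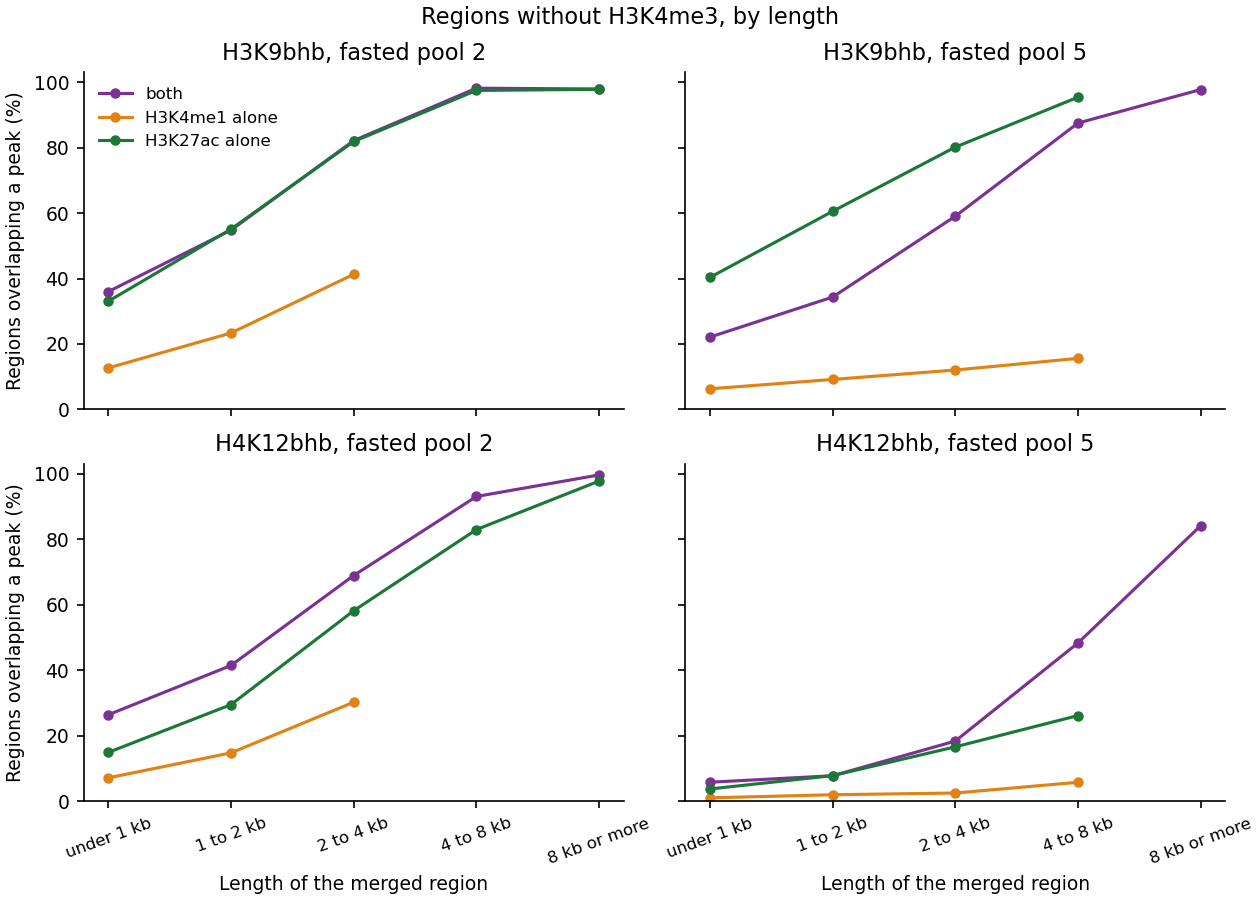
Share of regions without H3K4me3 (%) that overlap H3K9bhb (top) or H4K12bhb (bottom), by length of the merged region, for both marks, H3K4me1 alone and H3K27ac alone. Bins with fewer than 20 regions are not drawn. For H3K9bhb the curves of both marks and H3K27ac alone coincide in pool 2, and that of both marks lies lower in pool 5.

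Bases were also counted in place of regions, an alternative likewise chosen after seeing the data. Outside H3K4me3 peaks, H3K9bhb covered 78.0% of the bases under both marks, 21.1% under H3K4me1 alone and 56.4% under H3K27ac alone in pool 2. In pool 5 it covered 63.0%, 9.47% and 54.7%. H4K12bhb covered 74.2%, 15.8% and 43.7% in pool 2, and 32.3%, 2.44% and 12.9% in pool 5. By bases, both marks stood above H3K27ac alone for each β-hydroxybutyryl mark in each fasted pool, although the bases under both marks also belong to longer peaks.

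The 2 β-hydroxybutyryl marks differed in how they followed H3K4me3 on regions with H3K27ac alone, and within length bins also on regions with both marks. On regions with H3K27ac alone, H3K9bhb was found at 55.6% with and 54.7% without H3K4me3 in pool 2, and at 30.5% with and 54.7% without in pool 5. H4K12bhb was found at 73.4% with and 32.0% without in pool 2, and at 27.3% with and 7.27% without in pool 5. Among regions of 1 to 2 kb with H3K27ac alone, H3K9bhb lay on 26.7% with and 55.1% without H3K4me3 in pool 2, and on 10.5% with and 60.5% without in pool 5. In the same bin, H4K12bhb lay on 50.6% with and 29.5% without in pool 2, and on 10.4% with and 7.80% without in pool 5. For H4K12bhb the share with H3K4me3 was higher in 5 of 5 bins of pool 2 and 4 of 4 of pool 5. For H3K9bhb it was higher in 1 of 5 and in 0 of 4. On regions with both marks, H3K9bhb was higher with H3K4me3 in 1 of 4 bins of pool 2 and 2 of 4 of pool 5. H4K12bhb was higher there in 3 of 4 and 4 of 4. Without matching by length, both were higher with H3K4me3 on these regions, H3K9bhb by 11.6 and 15.4 points and H4K12bhb by 25.6 and 46.2.

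Combinations of the β-hydroxybutyryl marks followed the same line. Where both H3K4me1 and H3K27ac lay with H3K4me3, 89.1% of regions in pool 2 and 66.4% in pool 5 carried both β-hydroxybutyryl marks, and 1.79% and 10.6% carried H3K9bhb without H4K12bhb. Where H3K27ac lay alone without H3K4me3, 24.6% and 5.85% carried both, and 30.1% and 48.8% carried H3K9bhb without H4K12bhb. On H3K4me1 alone without H3K4me3, 76.3% of regions in pool 2 and 90.2% in pool 5 carried neither. H4K12bhb had 26252 peaks in pool 2 and 20031 in pool 5, and its shares were lower in pool 5 in every class.

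H3K79me2, which spreads over the bodies of transcribed genes, overlapped 13.9% of all regions in pool 2 and 34.0% in pool 5. Without H3K4me3 it overlapped 16.1% of regions with both marks, 25.6% with H3K4me1 alone and 4.44% with H3K27ac alone in pool 2, and 21.9%, 37.5% and 7.74% in pool 5. With H3K4me3, regions with both marks were the highest, at 38.5%, 35.2% and 16.02% in pool 2 and 66.3%, 28.1% and 25.5% in pool 5. These regions are longer, and length was not matched. By share of length covered, the order changed in pool 2, at 11.3% on both marks, 24.7% on H3K4me1 alone and 5.83% on H3K27ac alone. In pool 5 the covered shares were 39.8%, 27.2% and 13.1%. Without H3K4me3, H3K4me1 alone exceeded H3K27ac alone by 25.4 ± 6.1 points (SD, n = 2 pools), and was above it in 4 of 4 pools of the series (exact sign-flip p = 0.125). The H3K79me2 list of pool 5 held 31246 peaks and that of pool 2 held 14129, so its shares are compared only within a pool.

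H3K27me3, the Polycomb mark of silenced genes, was most frequent on H3K4me1 alone with H3K4me3 in both fasted pools. It overlapped 1.07% of all regions in pool 2 and 3.46% in pool 5. On H3K4me1 alone with H3K4me3 it overlapped 68 of 361 regions in pool 2, which is 18.8%, and 594 of 1174 in pool 5, which is 50.6%. In the other classes its share was 0.279% to 1.99% in pool 2 and 0.451% to 8.37% in pool 5, with H3K27ac alone with H3K4me3 the highest in each. Regions with H3K4me3 and H3K27me3 together are known as bivalent and are typical of silent developmental genes. H3K9bhb was found on 26.9% of the regions with H3K4me1 alone and H3K4me3 in pool 2 and on 2.81% in pool 5. H3K9me3, a mark of heterochromatin, overlapped 0.00476% of all regions in pool 2 and 0.0859% in pool 5, too few to compare.

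Regions that had the same class and the same H3K4me3 state in both fasted pools were compared as a further set. There were 13257 of them, 25.1% of the 52872 merged regions. With both marks there were 3592 with H3K4me3 and 3803 without, with H3K4me1 alone 39 and 1392, and with H3K27ac alone 2093 and 2338. Without H3K4me3, H3K9bhb lay on 82.0% and 83.8% of the shared regions with both marks in pools 2 and 5, on 12.5% and 8.98% with H3K4me1 alone, and on 66.7% and 70.4% with H3K27ac alone. The pools lay within 4 points of each other in each of these classes. Of the 39 regions with H3K4me1 alone and H3K4me3, 74.4% carried H3K27me3 in pool 2 and 76.9% in pool 5. With H3K27ac alone, H3K9bhb lay on 34.1% with and 66.7% without H3K4me3 in pool 2, and on 42.3% with and 70.4% without in pool 5, while H4K12bhb lay on 57.6% with and 32.1% without in pool 2 and on 40.4% with and 9.02% without in pool 5.

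The fasted-defined regions were then read in the fed pools. Without H3K4me3, H3K9bhb lay on 82.0% and 83.8% of the shared regions with both marks in fasted pools 2 and 5, against 48.7% and 38.2% in fed pools 1 and 4. On H3K27ac alone it lay on 66.7% and 70.4% in the fasted pools, against 27.03% and 17.5% in the fed pools. On H3K4me1 alone it lay on 12.5% and 8.98%, against 2.73% and 1.51%. The fed shares lay below both fasted shares in all 3 classes, and H3K27ac itself was called in fed pools 1 and 4 on 65.5% and 42.0% of the regions with both marks and on 36.7% and 19.4% of those with H3K27ac alone. H3K9bhb peaks called in both fasted pools and in no fed pool lay on 848 regions with both marks (22.3%), on 53 with H3K4me1 alone (3.81%) and on 675 with H3K27ac alone (28.9%). H3K9bhb was called in both fasted pools, whatever the fed call, on 75.0%, 4.45% and 56.8% of these classes. With H3K4me3 the fasted-only shares were 12.2% on both marks and 13.8% on H3K27ac alone. No share over all shared regions was formed, so these counts are not read as a trait of a class. For H4K12bhb on both marks, 70.5% and 46.1% in the fasted pools stood against 61.3% and 43.4% in the fed pools, so the groups overlapped. These regions were chosen on fasted libraries, and the fed H3K9bhb lists are shorter, with 38934 and 37640 peaks in the fasted pools and 19555 and 13923 in the fed pools. The part of either in the difference was not tested.

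**Figure D5:**
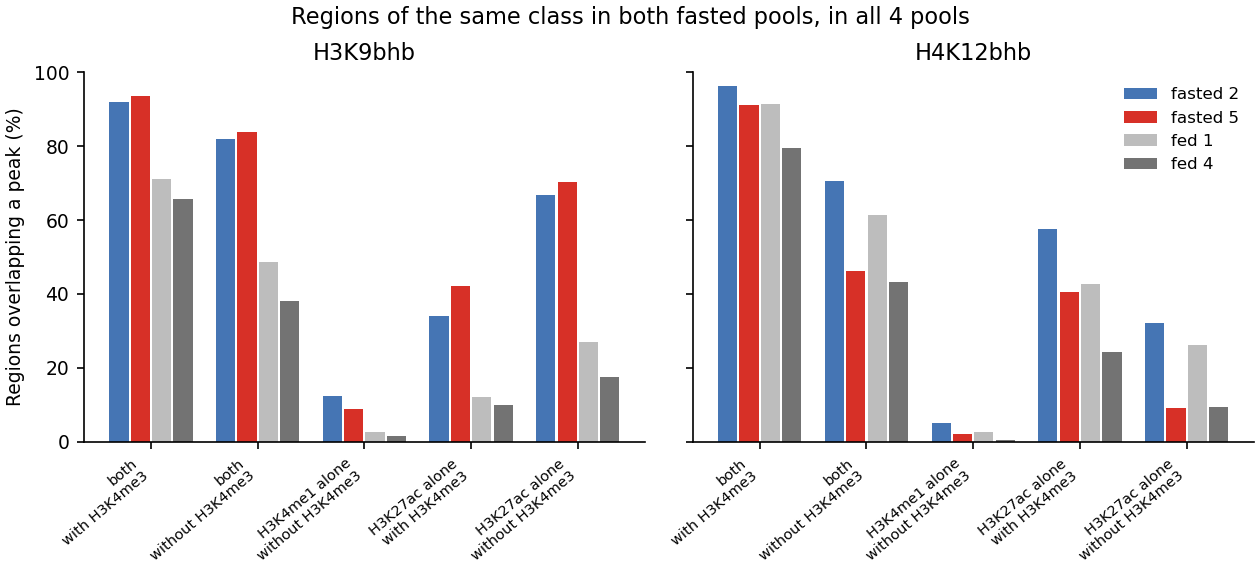
Share of regions (%) that overlap H3K9bhb (left) or H4K12bhb (right) in fasted pools 2 and 5 and fed pools 1 and 4, for regions with the same class and H3K4me3 state in both fasted pools. The class of 39 regions with H3K4me1 alone and H3K4me3 is not drawn. H3K9bhb bars are lower in both fed pools in every class, and H4K12bhb bars of fasted and fed pools overlap.

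When the classes were built from each pool's own lists, fasted and fed pools were closer. In fed pool 1, H3K9bhb overlapped 43.6% and H4K12bhb 64.1% of all merged regions, and in fed pool 4 they overlapped 21.7% and 28.4%. On regions with both marks and without H3K4me3, H3K9bhb lay on 79.3% and 61.7% in fasted pools 2 and 5, against 63.9% and 58.8% in fed pools 1 and 4. The difference of the means was 9.16 points, the groups overlapped, and a two-sided exact permutation test gave p = 0.67. Without fasted pool 2 it was 0.344 points and without fasted pool 5 it was 18.0. Fed pool 1 contributed only 97 such regions, and the difference was 11.7 points without it. Within run 10 the values were 79.3% in fasted pool 2 and 63.9% in fed pool 1, and within run 11 they were 61.7% in fasted pool 5 and 58.8% in fed pool 4. Fed pool 4 nested the marks the other way from fasted pool 2: H3K27ac lay inside H3K4me1 in 38.0% of its regions with both marks and without H3K4me3, and H3K4me1 inside H3K27ac in 3.09%.

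For each class divided by H3K4me3, the 4 shared regions with the highest lower score percentile are named by position on mm9. The leading region with both marks and H3K4me3, chr8:114247665-114273313, spans 25649 bp. H3K4me1 covered 67.4% of it in fasted pool 2 and 87.0% in fasted pool 5, H3K27ac covered 96.5% and 97.0%, and H3K9bhb covered 85.5% and 96.1%, against 54.9% and 69.8% in fed pools 1 and 4. The leading region with both marks and without H3K4me3, chr12:112241843-112248999, was covered by H3K9bhb over 96.2% and 99.4% in the fasted pools, against 44.6% and 74.8% in the fed pools. The leading region with H3K4me1 alone and without H3K4me3, chr12:81924524-81933833, was covered by H3K79me2 over 41.2% and 90.5% in the fasted pools, and by H3K9bhb over 0% in pool 2 and 7.08% in pool 5. The leading region with H3K27ac alone and H3K4me3, chr17:34721957-34731415, had 94.5% and 79.9% of its length under H3K9bhb and 97.6% and 88.2% under H4K12bhb in the fasted pools. The leading region with H3K27ac alone and without H3K4me3, chr7:126084135-126089690, had 71.1% and 89.3% under H3K9bhb in the fasted pools, against 18.6% and 0% in the fed pools. All named regions were chosen on scores of the fasted lists, and the fed H3K9bhb lists are shorter. The part of either in the lower fed coverage was not tested.

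The named regions are high-scoring members of the classes, chosen from the same lists, and give no separate support for them. H3K9bhb was called in both fasted pools on 4 of 4 named regions with both marks and H3K4me3, and on 4 of 4 with both marks and without it. It was called in both fasted pools on 0 of 4 and 0 of 4 with H3K4me1 alone, on 4 of 4 with H3K27ac alone and H3K4me3 and on 3 of 4 with H3K27ac alone and without it. Over all shared regions with H3K27ac alone the order was the opposite. There, H3K9bhb was called in both fasted pools on 26.1% with and 56.8% without H3K4me3. H3K27me3 was called in both fasted pools on 2 of 4 regions with H3K4me1 alone and H3K4me3, at chr8:109393709-109397173 and chr18:46370989-46372793. H3K4me1 was called in fed pool 4 on 3 of the 4 named regions with H3K27ac alone and without H3K4me3, which had none in either fasted pool. Over all 2338 shared regions of that class, it was called in fed pool 4 on 25.7%. In pool 5, 1282 H3K27ac peaks share a score of 3100, which leaves ties among the named regions with both marks. All 4 without H3K4me3 and ranks 3 and 4 with it tie at a percentile of 97.8214. Their order follows position and not strength.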

How the data were processed

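Chromatin immunoprecipitation and sequencing was done on mouse small intestinal crypts. The deposited files are peak lists with a score for each peak, the value of the authors' caller on the scale of -10 times log10 of p, at least 50. Peaks were called with MACS 1 against the input of the same pool, per the file names. FastQC, Bowtie 1.1.2, SAMtools 1.9, deepTools 1.5.11 and mm9 stand in the submitters' processing notes. Read depth and any filter on reads are not stated there. Every list was called on its own, so peak number and width move with depth and antibody yield.

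Intervals were merged and compared in Python 3.11.15 (scipy 1.17.1, pandas 2.3.3, numpy 2.4.6) and checked against bedtools and on simulated data. Same-numbered libraries come from the same pool of crypts, which is the block of the two-sided exact sign-flip tests. Fasted and fed pools were compared by two-sided exact permutation. The smallest exact p is 0.5 over 2 pools, 0.125 over 4 pools and 0.33 for 2 against 2 pools. Classes and tests were chosen with earlier results of these data known. Named regions were the 4 per class with the highest value of the lowest score percentile over the lists that define the class. Alternatives were a score of 100 or more, equal lists, 50% overlap, lengths of 1000 to 4000 bp, marks of either fasted pool, each pool left out and no replicate block. The gene tables at hand are on another build, so genes, gene lists and sequences were not used here. The 4 inputs were not used here.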

Additional observations from a re-analysis of the deposited data

Results flagged for a closer look

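The difference in H3K4me3 share between regions with both marks and regions with H3K27ac alone was above 0 in both fasted pools and below 0 in both fed pools when regions were not matched. It was 8.03 and 10.4 points in fasted pools 2 and 5, against -1.93 and -0.493 points in fed pools 1 and 4. The means, 9.21 in fasted and -1.21 in fed pools, differed by 10.4 points, for which exact permutation gave a two-sided p of 0.33, the lowest possible with 2 pools on each side. The H3K4me3 lists held 15079 and 18429 peaks in the fasted pools, against 3430 and 295 in the fed pools, and the part of list length was not tested. The fasted difference was itself below 0 in both pools under 4 alternatives: -6.17 and -9.51 points in pools 2 and 5 with scores of 100 or more, -9.68 and -19.1 with equal lists, -4.90 and -3.06 with a 50% overlap, and -10.8 and -11.2 in regions of 1000 to 4000 bp.

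The difference in H3K79me2 share between regions with both marks and H3K4me1 alone, without H3K4me3, was -9.46 and -15.6 points in fasted pools 2 and 5, against 1.15 and 1.17 points in fed pools 1 and 4. The means, -12.5 in fasted and 1.16 in fed pools, differed by -13.7 points, again with an exact permutation p of 0.33. Fed pool 1 had 571 H3K79me2 peaks and 97 regions with both marks.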

How the results depend on the processing

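Of 73 alternative values for 9 results, 67 kept their direction or moved by less than the SD between pools, and 6 were reversed. Some of the 67 could not have come out otherwise. With so few pools, leaving one out always moves their mean by less than the SD between them. The marks of either fasted pool do not enter the class shares, and dropping the replicate block leaves a difference unchanged. The count of 67 is thus no measure of stability, and it hides that the class order differed between the fasted pools. The H3K4me3 difference, both marks minus H3K27ac alone, was -7.84 points with scores of 100 or more, -14.4 with equal lists, -3.98 with a 50% overlap and -11.01 in regions of 1000 to 4000 bp. The H3K9bhb difference without H3K4me3, both marks minus H3K27ac alone, was -2.57 points in regions of 1000 to 4000 bp. The fasted minus fed difference of H3K9bhb on both marks was -8.69 points with scores of 100 or more, where fed pool 1 kept 1 region. The cause was not tested.

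Leaving out each pool in turn gave shares of 23.1% to 45.2% for both marks, 12.0% to 32.6% for H3K4me1 alone and 22.2% to 64.9% for H3K27ac alone. It gave 8.03 to 10.4 points for the H3K4me3 difference and 0.344 to 18.0 for fasted minus fed. For H3K9bhb it gave 7.02 to 24.6 points for both marks and -46.0 to -36.3 for H3K4me1 alone, each minus H3K27ac alone, and for H4K12bhb 19.7 to 37.5 and -20.7 to -5.50.

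With no replicate block the differences were the same by construction, 9.21 points for H3K4me3, 15.8 and -41.1 for H3K9bhb and 28.6 and -13.1 for H4K12bhb, and the exact permutation p was 0.33 for H3K4me3 and H3K9bhb and 0.67 for H4K12bhb. No pairing changed a call, since neither test could pass 0.05 with 2 pools. Unknown depth limits every share, because a weak mark without a called peak counts as absent.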

Other observations

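Chromosome X stood apart in the classes of the fasted pools. In fasted pool 2, 3 of 297 regions on chromosome X had both marks, 4 had H3K4me1 alone and 290 (97.6%) had H3K27ac alone, against 64.7% with H3K27ac alone on the autosomes. In fasted pool 5, 81 of 631 had both marks (12.8%), 71 had H3K4me1 alone (11.3%) and 479 had H3K27ac alone (75.9%), against 21.5% with H3K27ac alone on the autosomes. H3K4me1 had 7 peaks on chromosome X in fasted pool 2 and 171 in fasted pool 5, which is 0.0374% and 0.368% of its lists. H3K27ac had 293 and 564 there, or 0.772% and 1.57%, and H3K4me3 had 239 and 440, or 1.58% and 2.39%. In fed pool 4, H3K4me1 had 34 peaks on chromosome X and H3K27ac had 6. There, 34 of 40 regions on chromosome X (85.0%) had H3K4me1 alone, against 70.0% on the autosomes. In fed pool 1, 25 of 25 regions on chromosome X had H3K27ac alone, against 98.9% on the autosomes. Both sexes were pooled, and the share of males in each pool is not given in the sources used here.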
